A study of Rattus norvegicus with 8 samples.

Results

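Ionotropic glutamate receptor subunits were followed as 10 RefSeq transcript records, out of 18314 records quantified in rat stellate ganglia. They comprised the AMPA receptor subunits *Gria1* (NM_031608), *Gria2* (NM_017261), *Gria3* (NM_032990) and *Gria4* (NM_017263), the NMDA receptor subunits *Grin1* (NM_017010), *Grin2a* (NM_012573) and *Grin2b* (NM_012574), and the kainate receptor subunits *Grik1* (NM_017241), *Grik2* (NM_019309) and *Grik5* (NM_031508). All 10 records were present, and the name of each matched the RefSeq gene table. The study listed 6 of these genes (*Gria1*, *Gria2*, *Gria3*, *Grin2b*, *Grik1* and *Grik2*) among its ligand-gated channels on the basis of the same rats, so the number that changed is not independent evidence of a change in this family.

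RNA was taken from the right stellate ganglion, the sympathetic ganglion that supplies much of the cardiac innervation, of 4 male Wistar rats and 4 male spontaneously hypertensive rats (SHR), all 16 weeks old, with 1 library per rat. SHR are an inbred strain that develops hypertension, whereas Wistar are an outbred normotensive stock. The labels name no transgene or treatment for either group. Strain background and blood pressure cannot be told apart in this comparison. The libraries held between 25820299 and 35509074 estimated counts.

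Ionotropic glutamate receptors are tetrameric cation channels opened by glutamate. AMPA receptors carry fast excitatory current, and their calcium permeability depends on whether an edited GluA2 subunit, the product of *Gria2*, is present. NMDA receptors require the obligatory GluN1 subunit, bind glycine or D-serine as co-agonist and admit calcium, while kainate receptors modulate transmitter release and excitability. In sympathetic ganglia the main fast transmission is cholinergic, through nicotinic receptors.

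The ganglia carried the RNA of sympathetic neurons in both strains. Of 9 sympathetic markers found in the files, none was at 0 in any rat and none passed the edgeR test, with 1 at an unadjusted p under 0.05 (*Gata3*) and 1 called by DESeq2. Their summed TPM (a level corrected for transcript length and library size) ran from 24770 to 30290 in Wistar and from 26660 to 31050 in SHR. Of the satellite glia markers, 1 of 10 records passed, a record of *Apoe* (NM_001270684) with a log2 fold change of 6.88 (edgeR adjusted p = 0.0020), while the sum of all *Apoe* records did not pass (log2 fold change -0.51, adjusted p = 0.6012). The satellite glia markers summed to 849 to 1570 TPM in Wistar and 792 to 1077 TPM in SHR. Of the endothelial markers, 1 of 6 records passed, a record of *Flt1* that was higher in SHR, as was the gene sum (log2 fold change 0.79, adjusted p = 0.0219), and the list summed to 28.9 to 45.9 TPM in Wistar and 25.3 to 39.1 TPM in SHR. Their part in the results for the subunits was not tested. SHR 1 differed most in its counts from the other SHR libraries, with fibroblast markers at a summed 1574 TPM against 506 to 955 in the other SHR and 761 to 1314 in Wistar, and adipocyte markers at 34.3 TPM against 1.71 to 2.54 and 2.28 to 14.4. Wistar 1 held the highest adipocyte sum of its strain. The results below are therefore also given without both rats numbered 1 where that changed a call. In whole ganglia, fewer cells of a type and less RNA per cell cannot be told apart.

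The AMPA subunits *Gria2* and *Gria1* were the most abundant of the 10 subunits. With all records of a gene summed, *Gria2* averaged 12.8 ± 1.55 TPM and *Gria1* 11.7 ± 1.56 TPM in Wistar (SD, n = 4), and these 2 ranges overlapped. *Grik2* followed at 6.52 ± 0.776 TPM, then *Gria4* at 3.68 ± 0.423, *Gria3* at 2.37 ± 0.534, *Grin1* at 1.70 ± 0.0775 and *Grik5* at 1.05 ± 0.164, each with a range apart from that of the subunit named before it. *Grin2a* (0.499 ± 0.164 TPM), *Grik1* (0.424 ± 0.0569) and *Grin2b* (0.0403 ± 0.0232) were lowest, and the ranges of *Grin2a* and *Grik1* overlapped. In SHR these levels lay closer together. *Gria2* still led at 7.17 ± 2.54 TPM, followed by *Gria1* (4.44 ± 1.42), *Gria4* (4.44 ± 0.779), *Grik2* (4.40 ± 0.958) and *Gria3* (3.66 ± 0.676), and along these 5 each range overlapped the next. Over the 8 rats, *Gria2* averaged 9.99 TPM and lay above 56.8% of the 13106 genes tested. *Gria1* averaged 8.06 TPM and lay above 52.9% of them, whereas *Grin2b* averaged 0.128 TPM and lay above 0.595%. *Chrna3*, the nicotinic subunit of ganglionic transmission, averaged 1330 TPM.

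**Figure D1:**
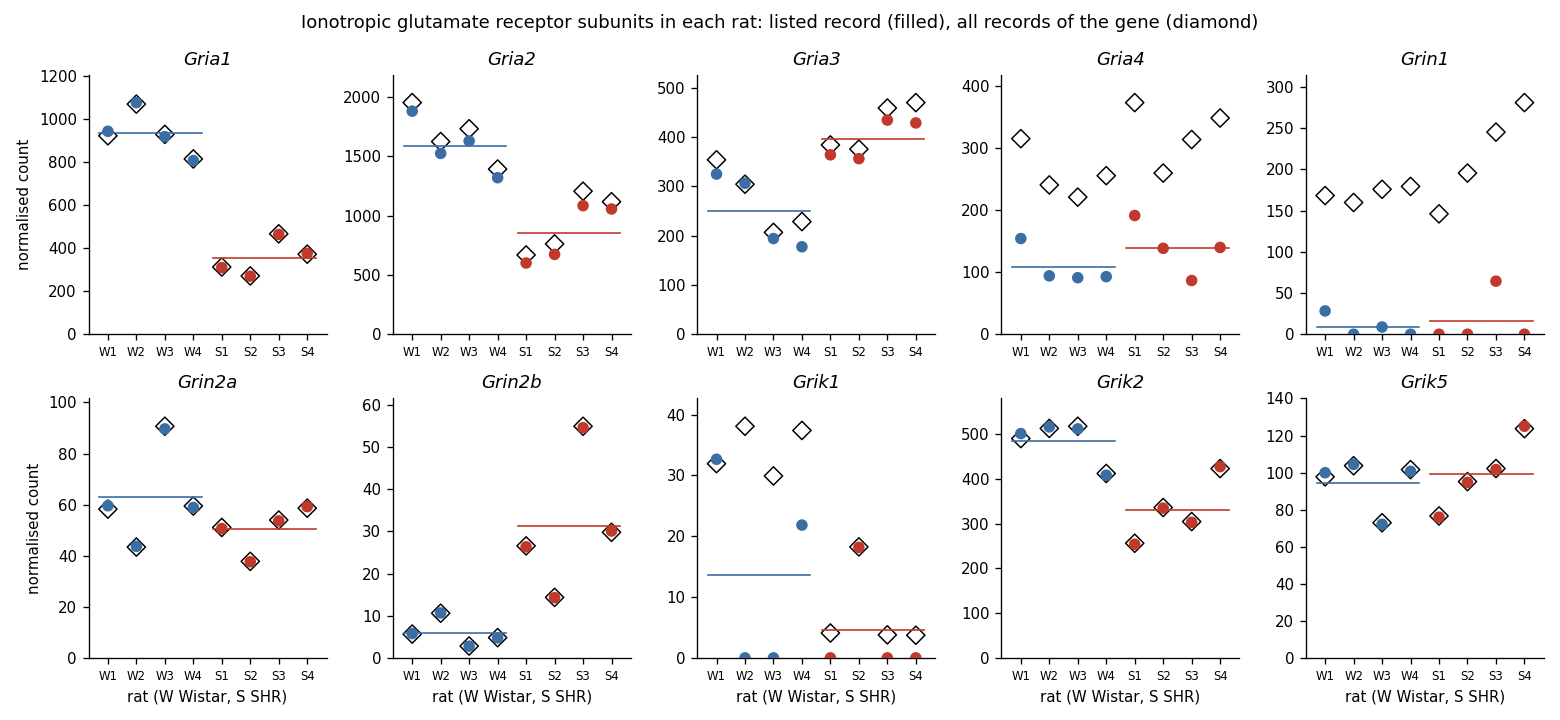
Normalised count (vertical axis, from 0) of each subunit in each of the 4 Wistar (blue) and 4 SHR (red) rats. Filled points are the listed record, lines its mean, and open diamonds the sum over all records of the gene. All SHR lie below all Wistar for Gria1 and Gria2, and above them for Gria3 and Grin2b, and for Grik1 the strains part only in the summed values.

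Between strains, 8 of the 10 records had enough reads to be tested, and 2 of these 8 passed the threshold of an adjusted p of 0.05 in edgeR's quasi-likelihood test. Both, *Gria1* and *Gria2*, were lower in SHR. Over all 13659 records tested, 2.85% passed (1.69% lower in SHR and 1.16% higher). The strains did not overlap in 4 of the 8 records (2 lower and 2 higher in SHR), against 10.6% of all records (5.97% lower and 4.62% higher). The median log2 fold change (SHR against Wistar) of the 8 was -0.12 and their median absolute log2 fold change 0.61. Over all records tested these were 0.007 and 0.21. With records summed to genes, all 10 could be tested and 3 passed, *Gria1* and *Gria2* lower and *Grin2b* higher, where 2.95% of 13106 genes passed (1.7% lower and 1.24% higher). At gene level the strains did not overlap in 5 of 10 (3 lower and 2 higher), against 10.9% of all genes (5.88% lower and 5.07% higher). *Grin2b* met the read filter through SHR, where it was higher, and the *Grik1* sum through Wistar, where it was higher. Their place in these counts is therefore not independent of that filter. With at least 10 counts required in every rat, *Grin2b* was not tested. The number called moved with the tool. DESeq2, the tool the study used, called 3 of the subunit records, where it called 5.23% of all records, and 4 of the gene sums, where it called 5.19% of all genes. The study ran it on gene-level values from an import step not repeated here. It reported *Gria3* and *Grin2b* higher and *Gria1*, *Gria2*, *Grik1* and *Grik2* lower in SHR. The study also measured these genes by qRT-PCR in ganglia it describes as independent, and reported the same direction for each. Of these subunits, *Gria1*, *Grik1* and *Grin2b* reached significance there, and the others did not. Those measurements were not re-analysed here. The gene-sum DESeq2 fit here did not call *Gria3* (adjusted p = 0.0585) or *Grik2* (adjusted p = 0.0571). With a length offset DESeq2 called 5 records (6.27% of all). Limma on TPM called 1 (2.28% of all). Without both rats numbered 1, edgeR called 1 record (7.79% of all) and 2 gene sums (8.87% of all).

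*Gria1* encodes GluA1, a pore-forming AMPA subunit. Its normalised count (the estimated count scaled between rats) was 943, 1077, 919 and 807 in Wistar 1 to 4 and 309.8, 269.9, 464 and 376 in SHR 1 to 4. The highest SHR rat lay well below the lowest Wistar rat. The mean fell from 936.5 ± 110.5 to 355 ± 84.8 (SD, n = 4), a log2 fold change of -1.40 (SE 0.18, edgeR adjusted p = 0.00219). The gene has 1 record, so no reads were divided between transcripts. The call was kept under each of the 28 alternative fits of *Gria1*, with log2 fold changes from -1.56 to -1.29 and adjusted p from 5.49e-12 to 0.0333, and it was the single subunit for which this held.

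*Gria2* encodes GluA2, the subunit whose edited form limits calcium entry. It was also lower in SHR, with less margin. Wistar 1 to 4 had 1883, 1526, 1631 and 1321 normalised counts and SHR 1 to 4 had 601, 674, 1085 and 1057. SHR 1 and SHR 2 lay below SHR 3 and SHR 4, and all 4 lay below every Wistar rat. The log2 fold change was -0.90 (SE 0.20, edgeR adjusted p = 0.0493). DESeq2 gave an adjusted p of 0.000872, but the edgeR call was lost on leaving out any rat other than SHR 3, with adjusted p from 0.0340 without SHR 3 to 0.1197 without Wistar 3. It was also lost without both rats numbered 1, where the log2 fold change was -0.68 (adjusted p = 0.0618), and under limma on TPM (adjusted p = 0.1239).

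The 2 SHR rats with the least *Gria1* and *Gria2* RNA differed from the other SHR in other cells too. Macrophage markers (5 of 5 measured, none at 0) summed to 84.1 and 91.0 TPM in SHR 1 and SHR 2 but 19.2 and 28.2 TPM in SHR 3 and SHR 4, against 48.2 to 78.1 TPM in Wistar. Smooth muscle markers (3 of 3 measured, none at 0) summed to 125 and 106 TPM in SHR 1 and SHR 2 and 16.5 and 25.2 TPM in SHR 3 and SHR 4, against 55.0 to 125 TPM in Wistar. SHR 3 and SHR 4, with the lowest sums of both lists, had 464 and 376 normalised counts of *Gria1*. They had 1085 and 1057 of *Gria2*, and for both genes these values lay below every Wistar rat. The part of these other cells in the *Gria1* and *Gria2* results was not tested.

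*Gria3* and *Gria4*, the remaining AMPA subunits, had positive log2 fold changes that did not pass. *Gria3* had 325, 307, 194 and 178 normalised counts in Wistar 1 to 4 and 364, 356.5, 435 and 429 in SHR 1 to 4. Every SHR rat lay above every Wistar rat, though Wistar 1 came close. The log2 fold change of 0.66 (SE 0.21) did not pass (edgeR adjusted p = 0.1546). It passed in 2 of 28 alternatives, DESeq2 with a length offset (adjusted p = 0.0454) and gene sums without both rats numbered 1 (adjusted p = 0.0267, log2 fold change 0.82). *Gria4* had 90.9 to 153.9 normalised counts in Wistar and 86.4 to 191 in SHR, which overlap, and its log2 fold change of 0.37 (SE 0.28) did not pass (adjusted p = 0.5288).

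The make-up of the AMPA subunit RNA was described as shares of the summed TPM. Summed over all records of the 4 genes, AMPA subunits came to 32.4, 32.8, 30.6 and 26.4 TPM in Wistar 1 to 4 and 16.4, 14.7, 25.9 and 21.8 TPM in SHR 1 to 4. *Gria1* made up 38.2% ± 3.16 of this sum in Wistar and 22.3% ± 1.65 in SHR (SD, n = 4), and *Gria2* 41.9% ± 2.62 and 35.8% ± 4.29. *Gria3* took 7.73% ± 1.28 in Wistar and 18.8% ± 1.42 in SHR, and *Gria4* took 12.1% ± 1.83 and 23.0% ± 3.93. The Wistar and SHR ranges of the *Gria1*, *Gria3* and *Gria4* shares did not overlap on this scale, and those of *Gria2* (39.2% to 44.6% against 29.7% to 39.5%) did. Over the listed records alone the *Gria4* shares overlapped, at 3.44% to 5.30% in Wistar and 4.86% to 14.8% in SHR. The shares add to a fixed sum, so a lower share of some subunits raises the others. No p-value was computed for them.

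**Figure D2:**
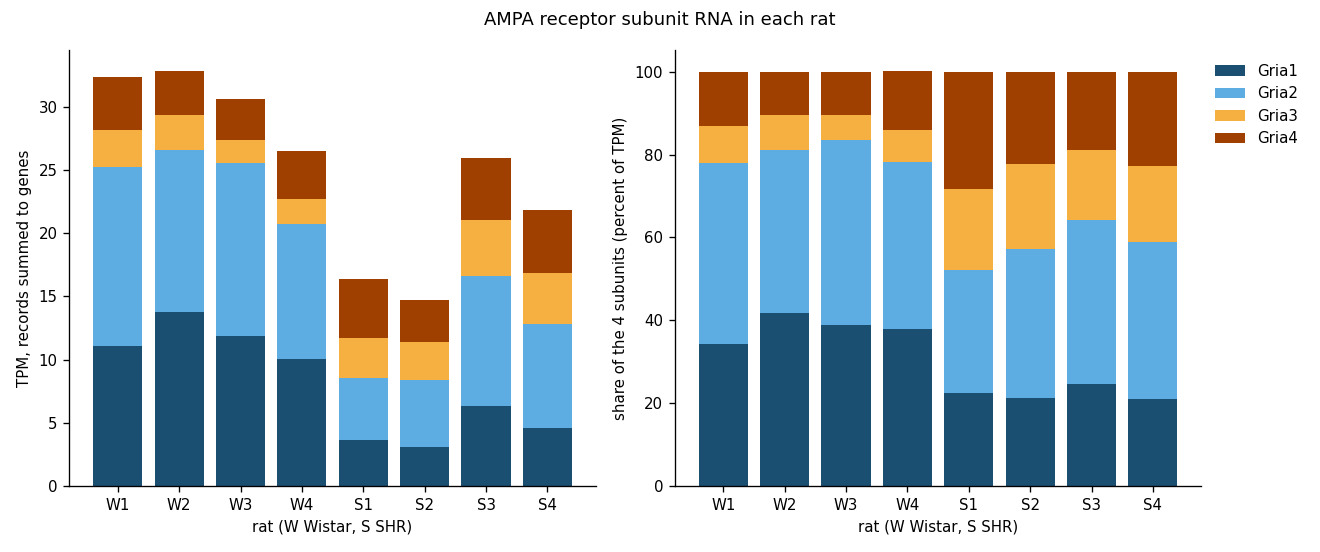
TPM of the 4 AMPA subunit genes stacked for each rat (left, vertical axis in TPM) and as percent of their sum (right). In the 4 SHR rats the sum is 14.7 to 25.9 TPM against 26.4 to 32.8 TPM in Wistar, and Gria3 with Gria4 fill more of it.

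Among NMDA subunits, *Grin2b*, which encodes the GluN2B subunit, had more reads in each SHR rat at a very low level. Its estimated counts before scaling were 6, 10, 3 and 5 in Wistar 1 to 4 and 26, 11, 58 and 32 in SHR 1 to 4. SHR 2, at 14.3 normalised counts, came near to the highest Wistar rat, at 10.65, while SHR 3 lay far above. The log2 fold change was 2.39 (SE 0.55, edgeR adjusted p = 0.0526) for the record and 2.40 (SE 0.54, adjusted p = 0.0449) for the gene. Both rest on the same reads, since the gene has 1 record, and the 2 fits differ in the other features they hold. DESeq2 called it (adjusted p = 0.00686). Leaving out SHR 3 lowered the log2 fold change of the record to 1.98 (adjusted p = 0.1251), and with 1 rat removed at a time, edgeR called it without SHR 2 and in no other case (adjusted p = 0.0401). At gene level, too, the call held without SHR 2 (adjusted p = 0.0310) and was lost on leaving out any other rat, with adjusted p up to 0.1321, and without both rats numbered 1 (adjusted p = 0.0549).

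*Grin2a*, which encodes GluN2A, had 43.7 to 89.7 normalised counts in Wistar and 37.6 to 59.2 in SHR, with a log2 fold change of -0.32 (SE 0.29, adjusted p = 0.6019). *Grin2b* made up 2.57% to 17.2% of the summed TPM of *Grin2a* and *Grin2b* in Wistar and 24.4% to 46.3% in SHR. *Grin1*, the obligatory subunit, has 8 records, and the listed record was at 0 in 5 of 8 rats and was not tested. Summed over its records, *Grin1* had 168, 160, 176 and 179 normalised counts in Wistar 1 to 4 and 146, 195.5, 245 and 281 in SHR 1 to 4. SHR 1 lay below all Wistar rats and the other SHR above them, and the log2 fold change of 0.35 (SE 0.21) did not pass (adjusted p = 0.4149).

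The values of the kainate subunit *Grik1*, which encodes GluK1, depended on how its reads were counted. Its listed record was at or near 0 in 5 of 8 rats, held all of the gene's reads in Wistar 1 and SHR 2, and was not tested. The 3 records of the gene together held 34, 36, 32 and 39 reads in Wistar 1 to 4 and 4, 14, 4 and 4 in SHR 1 to 4. Each SHR rat lay below all Wistar rats, with SHR 2 apart from the other SHR. The log2 fold change of the sum was -2.25 (SE 0.54, edgeR adjusted p = 0.0550), which missed the threshold. It passed with DESeq2 (adjusted p = 0.00318) and in edgeR without SHR 2 (log2 fold change -3.12, adjusted p = 0.00385).

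**Figure D3:**
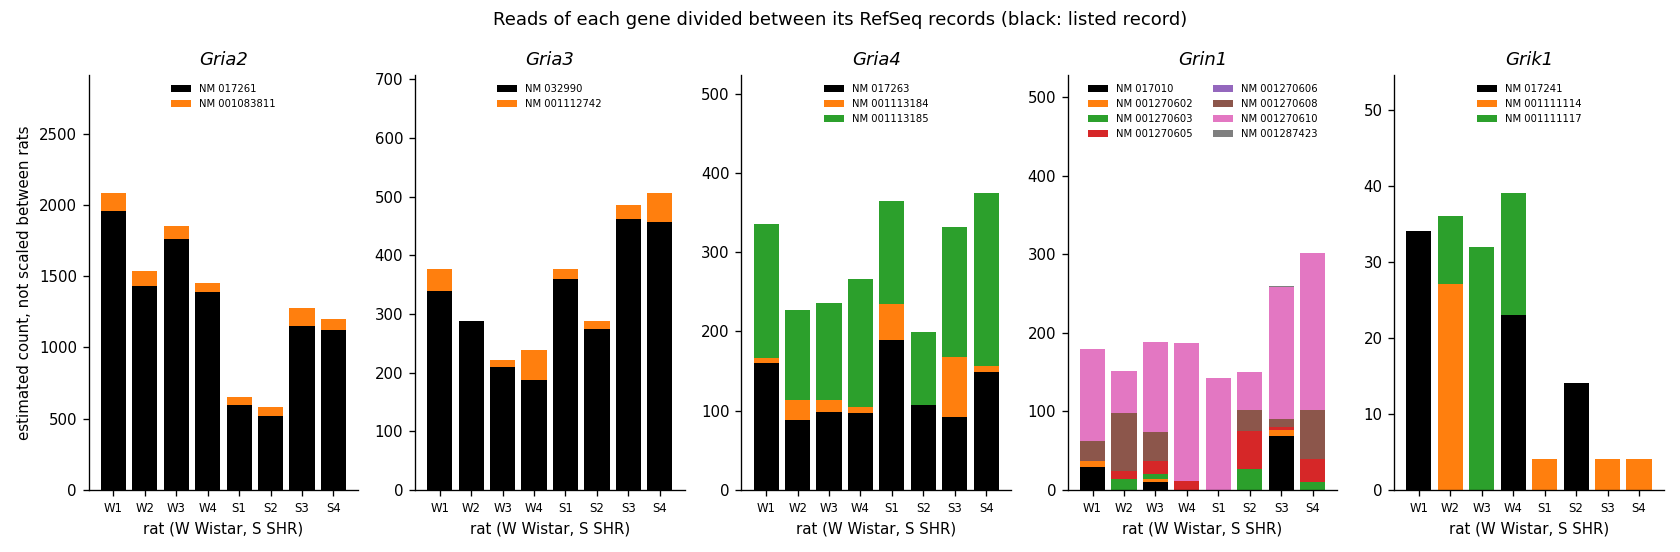
Estimated counts (vertical axis, not scaled between rats) of the 5 subunit genes that have more than 1 RefSeq record, stacked by record for each rat, with the listed record in black. The black part of Grik1 fills the bar in W1 and S2 and is missing in 5 rats, and the Grin1 record is a small part of its bar, whereas the Gria2 record holds 88.8% to 95.7% of its reads.

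The split of reads bears on the other genes with several records to a smaller degree. The listed record of *Gria2* held 93.3% to 95.7% of the gene's reads in Wistar and 88.8% to 93.6% in SHR, that of *Gria3* 78.4% to 100% and 90.3% to 95.6%, and that of *Gria4* 36.7% to 47.8% and 27.7% to 53.5%. The AMPA genes have alternative flip and flop exons of similar sequence, and which record holds which form was not determined here. Summed to genes, the log2 fold changes were -0.84 for *Gria2* (SE 0.19, adjusted p = 0.0492), 0.63 for *Gria3* (SE 0.19, adjusted p = 0.1209) and 0.33 for *Gria4* (SE 0.17, adjusted p = 0.3454).

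*Grik2*, which encodes GluK2 and was the most abundant kainate subunit, had 501.5, 516.5, 512 and 408.5 normalised counts in Wistar 1 to 4 and 254, 335, 303 and 428 in SHR 1 to 4. SHR 4 lay above Wistar 4, and the other SHR lay below all Wistar rats. The log2 fold change was -0.55 (SE 0.17) and did not pass (edgeR adjusted p = 0.1382), and of its 28 alternatives DESeq2 with a length offset called it (adjusted p = 0.0455). *Grik5*, which encodes the high-affinity subunit GluK5, had 72.1 to 104 normalised counts in Wistar and 75.9 to 125 in SHR, with a log2 fold change of 0.08 (SE 0.22, adjusted p = 0.8962). A range of 2 SE on either side of it ran from -0.37 to 0.52, so differences within that range were not excluded. *Grik5* made up 9.84% to 15.6% of the summed kainate TPM in Wistar and 18.8% to 21.5% in SHR, and *Grik1* 4.46% to 6.44% and 0.65% to 3.87%.

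**Figure D4:**
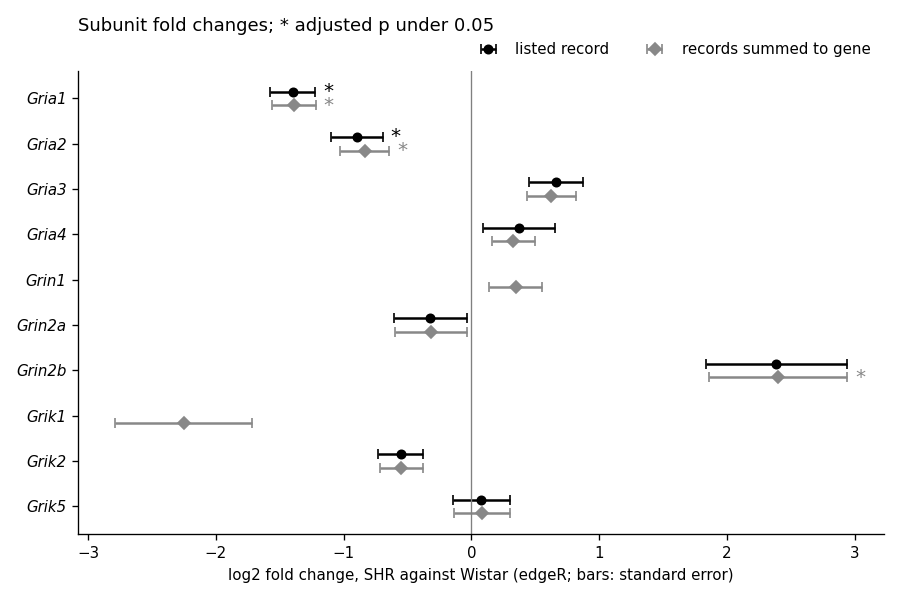
Log2 fold change of SHR against Wistar (horizontal axis) with its standard error for the listed record (black circles) and the sum over records of the gene (grey diamonds), with asterisks at an adjusted p under 0.05. Gria1 and Gria2 lie left of 0 with asterisks on both scales, Grin2b at 2.39 and 2.40 has one on the gene scale, and Grin1 and Grik1 have gene values alone.

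The reference sequence before the start of *Grik1* and *Grik2*, the kainate genes with negative log2 fold changes, is shown to place these genes. The RefSeq table (assembly GRCr8, from another rat strain than those compared) holds such windows for 5 of the 10 subunits, *Gria4*, *Grin1*, *Grik1*, *Grik2* and *Grik5*. *Gria1*, *Gria2*, *Gria3*, *Grin2a* and *Grin2b* are named only. The windows give the 250 bases upstream on the strand of the gene, chr11:41056504-41056753 (minus strand) for *Grik1* and chr20:54415284-54415533 (minus strand) for *Grik2*, and capitals mark a CAAT box.
Grik1: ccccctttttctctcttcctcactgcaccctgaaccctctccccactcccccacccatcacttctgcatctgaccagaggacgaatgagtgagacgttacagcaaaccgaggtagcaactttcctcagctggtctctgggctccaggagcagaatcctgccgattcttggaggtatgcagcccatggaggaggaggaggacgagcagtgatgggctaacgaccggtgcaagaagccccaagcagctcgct
Grik2: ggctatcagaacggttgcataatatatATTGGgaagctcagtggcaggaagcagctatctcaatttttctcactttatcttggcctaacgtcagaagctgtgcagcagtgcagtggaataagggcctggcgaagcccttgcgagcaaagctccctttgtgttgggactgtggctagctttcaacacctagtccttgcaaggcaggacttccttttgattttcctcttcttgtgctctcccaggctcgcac
A CAAT box was searched as CCAAT on both strands, and 34.0% of the 33469 windows in the table held one. The *Grik2* window held 1, on the strand opposite to the gene at bases -223 to -219, and the *Grik1* window held none. A GC box was searched as GGGCGG on both strands, and 30.5% of all windows but neither of these held one. The G and C content was 57.6% for *Grik1* and 49.6% for *Grik2*, against a median of 51.2%.

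The subunits outside the 10 gave no call. Of 8 other ionotropic glutamate receptor genes, 6 records could be tested and none passed in edgeR, 1 (*Grin3b*) had an unadjusted p under 0.05, and neither DESeq2 nor limma called any. Their median log2 fold change was 0.57, against 0.007 over all records tested. The gene sum of *Grin3a* was higher after scaling in each SHR rat than in any Wistar rat, at few reads and by a narrow margin. It held 13, 12, 3 and 14 reads in Wistar 1 to 4 and 14, 15, 27 and 23 in SHR 1 to 4. Of all genes tested, 5.07% were higher in SHR without overlap. The log2 fold change of *Grin3a* was 0.97 and did not pass (SE 0.48, edgeR adjusted p = 0.3302).

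Genes that act with these receptors gave few calls. None of 9 records of AMPA and kainate auxiliary subunits passed in edgeR, and 1 had an unadjusted p under 0.05. This was *Cnih2*, a cornichon protein that slows AMPA receptor gating, with 42.3, 41.5, 36.0 and 35.1 normalised counts in Wistar 1 to 4 and 8.10, 15.6, 21.6 and 15.04 in SHR 1 to 4. Its strains did not overlap, its log2 fold change was -1.35 (SE 0.36, edgeR adjusted p = 0.0886), and DESeq2 called it while limma did not. Of 15 records of scaffold and trafficking genes none passed in edgeR, DESeq2 or limma and none had an unadjusted p under 0.05, with a median log2 fold change of 0.01. Of 5 records of RNA editing enzymes, which include the *Adarb1* enzyme that edits *Gria2* RNA, none passed by any of these tools and none had an unadjusted p under 0.05.

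On the side of the ligands, none of 12 records of glutamate synthesis and transport genes passed in edgeR, DESeq2 or limma, and 1 had an unadjusted p under 0.05. None of 4 records of genes for the co-agonists glycine and D-serine passed in edgeR. *Slc6a5*, a glycine transporter, had an unadjusted p under 0.05 and was called by DESeq2, not by limma, with 1.90 to 19.4 normalised counts in Wistar and 39.5 to 70.6 in SHR (log2 fold change 1.98, SE 0.55, edgeR adjusted p = 0.1013). Of 4 records of metabotropic glutamate receptors 1 passed. *Grm7*, which encodes an inhibitory presynaptic receptor, had 818, 1117, 1247 and 1083 normalised counts in Wistar 1 to 4 and 701, 629, 782 and 644 in SHR 1 to 4. Its strains did not overlap, and its log2 fold change was -0.63 (SE 0.14, adjusted p = 0.0466). Summed to genes it missed the threshold (adjusted p = 0.0538), and of the 8 fits with 1 rat removed the record kept its call without Wistar 1 alone.

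The other 9 ligand-gated channel genes that the study listed were chosen on these rats, and their count is not independent evidence. Of their 11 records 6 passed, 4 lower and 2 higher in SHR. *Chrnb4*, a nicotinic subunit (log2 fold change -0.63), *Gabra2*, a GABA-A subunit (-2.08), *Htr3a*, a serotonin receptor subunit (-0.69), and the ATP-gated channel *P2rx6* (-0.63) were lower. The protein-coding record NM_031075 of the ATP-gated channel *P2rx3* (1.77) was among those higher. Summed to genes 5 of 9 passed, and *P2rx3* did not (log2 fold change 0.57, adjusted p = 0.0999). *Glrb* (-0.55), *Htr3b* (-0.58) and *P2rx4* (0.87) did not pass as records in edgeR, whereas DESeq2 called 9 of the 11 records, these 3 among them. Leaving out 1 rat gave 2 to 4 calls in this list, with 2 in the fits without SHR 2, SHR 3, Wistar 1 or Wistar 3 and 3 in those without Wistar 2 or Wistar 4.

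**Figure D5:**
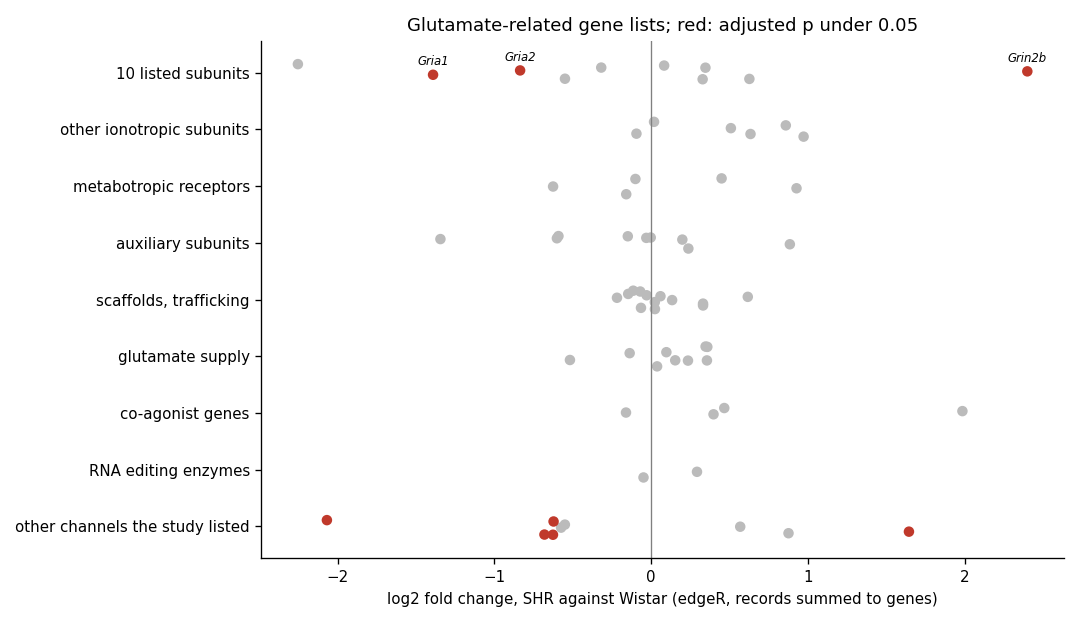
Log2 fold change of SHR against Wistar (horizontal axis, records summed to genes) of each tested gene, by list (vertical axis), with genes at an adjusted p under 0.05 in red and vertical scatter without meaning. Red points among the 10 subunits are Gria1, Gria2 and Grin2b, the channels the study listed hold 5, and the other 7 lists hold none.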

How the data were processed

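The authors mapped paired reads to rat RefSeq transcripts of build rn6 with Salmon 0.8.2, correcting for GC and positional bias, and FastQC 0.11.7 was named for quality control. The deposited files give, for each record, a TPM, an estimated count, often fractional, and an effective length, without normalisation of the counts between rats. The labels name a stranded mRNA kit, whereas the study describes an amplified low-input library.

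Estimated counts were rounded and tested with edgeR 4.0.16 in R 4.3.3 (quasi-likelihood test, TMM, filterByExpr, Benjamini-Hochberg over all records, threshold 0.05). The 17360 records named in the RefSeq gene table were also summed to 16420 genes. A normalised count is the TMM-scaled count brought to a library of 32217816. Each SE is the log2 fold change divided by the root of the F statistic. TPM entered levels, shares and a limma 3.58.1 fit with a pseudocount of 0.1. DESeq2 1.42.0 (also with a length offset), RLE factors, other filters, a replicate block, and leaving out rats served as alternatives. Gene-sum fits with DESeq2, the block or fewer rats were chosen after seeing the data. The fits were tested on simulated counts. All 10 subunits are named, with the genes of each further list past the threshold. Subunits and lists were chosen with earlier results of these data known. The genes Shisa9 and Gsg1l had no matching record name. Some listed genes are not reported here. *Cnih2*, *Slc6a5*, *Grin3a*, *Grin3b* and *Gata3* are named outside this rule, after their values were seen. Nothing states that the rats' numbers pair them. P-values set the strain difference against the spread between rats of a strain, estimated with information shared across records.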

Additional observations from a re-analysis of the deposited data

Results flagged for a closer look

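Values were checked for a rat far from the other 3 of its strain, in 30 groups of 4. Chance flags about 1 in 20 groups, here 1.5, and 6 were flagged. These numbers cannot measure an excess over chance, because the groups are not independent. Listed records and gene sums share reads, and a group in which 3 rats are at or near 0 is flagged whenever the remaining rat has reads. For the listed records, Wistar 1 stood apart as the highest of its strain for *Gria4* at 153.9 normalised counts, Wistar 4 as the lowest for *Grik2* at 408.5 and Wistar 3 as the lowest for *Grik5* at 72.1. SHR 3 stood apart for the *Grin1* record at 64.3 and SHR 2 for the *Grik1* record at 18.2, where the other 3 SHR rats were at or near 0 in both. For all reads of *Grik1*, SHR 2 stood apart at 18.25 normalised counts.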

How the results depend on the processing

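Of the 10 subunits, *Gria1* was lower in SHR and past the threshold in every fit run. Against 2 calls (0 higher, 2 lower) over records, DESeq2 gave 3 with 1 higher, DESeq2 with a length offset 5 with 2 higher, and limma on TPM 1, lower. Without both rats numbered 1 the calls were 1 lower, or with records summed to genes 1 lower and 1 higher. The gene sums themselves gave 3 with 1 higher, and 4 with 1 higher in DESeq2. Leaving out 1 rat gave 1 to 2 calls (0 to 1 higher, 1 to 2 lower) over records and 1 to 3 (0 to 1 higher, 1 to 2 lower) over genes.

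Whether the rats' numbers pair them is not known. Same-numbered rats had correlations of deviations from their strain means from -0.29 to -0.0389. These values cannot settle it, since the deviations within a strain offset each other. With the replicate block 1 subunit was called, lower, over records and over genes, and all records past the threshold went from 389 (158 higher, 231 lower) to 132 (44 and 88), with 143 genes (55 and 88).

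All features past the threshold numbered 782 with DESeq2 (353 higher, 429 lower), 852 with the length offset (377 and 475), 1068 without both rats numbered 1 (303 and 765) and 237 to 454 leaving out 1 rat (92 to 198 and 136 to 256). Summed to genes they numbered 758 with DESeq2 (345 and 413), 1165 without both rats numbered 1 (344 and 821) and 240 to 538 leaving out 1 rat (94 to 230 and 135 to 308).

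*Grik5* changed sign without SHR 4 (-0.041, or -0.055 summed to genes) and without Wistar 3 (-0.024 on both scales), within a range of -0.055 to 0.19 over fits that leave out 1 rat. The *Gria1* share of AMPA TPM, 43.1% in Wistar and 27.7% in SHR over listed records, was 38.2% and 22.3% over genes and 32.6% and 20.3% in normalised counts, where that of *Gria2* was 55.1% and 48.3% (44.8% and 40.5% in TPM). The channels the study listed gave 9 calls with DESeq2, 1 with limma and 1 with the block, and 2 to 4 leaving out 1 rat. The metabotropic receptors gave 0 with limma, without a filter, with the block and over genes, and 0 to 1 leaving out 1 rat (0 in 7 of 8). Auxiliary and co-agonist genes each gave 1 with DESeq2, with or without the offset, and glutamate supply 1 without both rats numbered 1. The causes were not tested. The calls of *Grin2b*, at 3 to 58 reads per rat, and of *Grik1*, at 4 to 39, changed on leaving out single rats. So did that of *Gria2*, whose record held 519 to 1960.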
